A study of Mus musculus with 3 samples.

Results

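The genes described here are a panel of 42 mouse genes that drive or monitor mitosis, listed by name for their roles, with earlier results of these data known. The choice of genes used no signal, but the list was not drawn up blind to those results. The choice of a probe set for each gene, described below, did use the signals that are compared. The value table held a probe set with a single listed symbol for 41 of them, among 18193 genes in all, and Ccnb1 was not analysed here. Expression was measured on 1 microarray for each of 3 C57BL/6 cell populations, so no difference has a replicate check and none was tested. The embryonic stem (ES) cells, line B6N-22, grew with leukemia inhibitory factor and serum on mouse embryonic fibroblasts that had been stopped from dividing with mitomycin C. The B220 B cells and the CD4 T cells were taken from spleens of mice aged 6 to 8 weeks and enriched on magnetic beads to above 98% purity, per the labels. The sources used here do not state how many mice each lymphocyte array represents, or whether feeder cells were removed before ES cell RNA was extracted.

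Mitosis is driven by the kinase CDK1 bound to cyclins A and B. The spindle assembly checkpoint holds cells in metaphase until every kinetochore is attached to spindle microtubules. The anaphase-promoting complex (APC/C), activated by CDC20, then marks cyclin B and securin for destruction, and separase opens cohesin so that chromatids part. Most genes of this programme are transcribed late in the cell cycle, through promoter elements bound by the repressive DREAM complex in resting cells and by the MYB-MuvB and FOXM1 activators in G2. ES cells cycle quickly, and most splenic lymphocytes of an unimmunized mouse are at rest.

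Promoter sequences were examined because late cell cycle genes are known for a shared element, the cell cycle genes homology region (CHR), often placed downstream of CCAAT boxes. RefSeq promoter windows (build GRCm38.p6), from 250 bases before to 50 bases after the annotated start, matched 34 of the 41 measured genes. Those without a window in the table were Ccna2, Cdc25c, Aurkb, Incenp, Kif20a, Smc4 and Tpx2. The stretches below run from 150 bases before to 30 bases after the start, 5′ to 3′ on the gene's strand, with CHR and CCAAT letters of either orientation in capitals. The first 5 belong to genes with much lower signals in both lymphocyte populations than in ES cells, and the last 3 to genes that were not, and all 8 were chosen after their values were seen.
Bub1, chr2:127831830-127832009, minus strand: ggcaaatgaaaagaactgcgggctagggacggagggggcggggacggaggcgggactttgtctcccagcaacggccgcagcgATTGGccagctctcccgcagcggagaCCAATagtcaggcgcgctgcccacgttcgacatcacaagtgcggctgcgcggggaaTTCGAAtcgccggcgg
Cdk1, chr10:69352883-69353062, minus strand: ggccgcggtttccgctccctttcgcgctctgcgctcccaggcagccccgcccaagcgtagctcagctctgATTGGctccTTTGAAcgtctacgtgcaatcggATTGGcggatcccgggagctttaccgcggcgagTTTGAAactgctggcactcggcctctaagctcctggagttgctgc
Ube2c, chr2:164769779-164769958, plus strand: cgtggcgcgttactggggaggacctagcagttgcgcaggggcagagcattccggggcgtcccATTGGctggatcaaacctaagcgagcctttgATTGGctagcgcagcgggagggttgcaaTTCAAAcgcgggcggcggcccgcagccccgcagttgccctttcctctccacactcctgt
Cdc20, chr4:118437314-118437493, minus strand: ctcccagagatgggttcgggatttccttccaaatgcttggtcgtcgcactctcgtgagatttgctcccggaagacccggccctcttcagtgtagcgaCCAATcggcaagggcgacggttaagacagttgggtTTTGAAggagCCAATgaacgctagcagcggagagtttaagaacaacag
Ccnb2, chr9:70421525-70421704, minus strand: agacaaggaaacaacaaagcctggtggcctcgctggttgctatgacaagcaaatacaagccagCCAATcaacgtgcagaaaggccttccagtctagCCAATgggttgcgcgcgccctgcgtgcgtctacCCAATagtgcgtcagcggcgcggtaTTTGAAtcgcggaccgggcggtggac
Cdc25b, chr2:131186798-131186977, plus strand: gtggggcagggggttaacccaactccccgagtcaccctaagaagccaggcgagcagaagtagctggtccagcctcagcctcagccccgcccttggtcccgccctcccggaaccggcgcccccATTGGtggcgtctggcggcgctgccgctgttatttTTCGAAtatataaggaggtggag
Bub3, chr7:131560220-131560399, plus strand: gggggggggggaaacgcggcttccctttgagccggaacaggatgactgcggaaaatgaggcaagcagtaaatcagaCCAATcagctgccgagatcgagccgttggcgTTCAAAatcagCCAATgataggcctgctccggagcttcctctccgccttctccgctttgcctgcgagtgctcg
Pttg1, chr11:43425952-43426131, minus strand: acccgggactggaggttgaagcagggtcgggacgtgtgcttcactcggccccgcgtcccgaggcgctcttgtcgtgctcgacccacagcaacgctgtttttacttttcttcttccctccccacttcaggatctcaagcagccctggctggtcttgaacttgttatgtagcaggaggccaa

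The CHR was searched as TTTGAA or TTCGAA and the CCAAT box as CCAAT, both strands, over the whole 300-base window. CHR letters were present in 26 of the 34 members (76.5%), against 17.5% of the 14452 genes of the value table that had a window. CCAAT letters were present in 25 members (73.5%), against 42.0%, and both kinds in 24 (70.6%), against 7.05%. A CHR starting within 50 bases of the annotated start, a distance chosen after the positions were seen, was found in 24 members (70.6%), against 4.62%. A CHR that began 25 to 45 bases downstream of the start of a CCAAT box, a spacing chosen in the same way, was found in 12 members (35.3%), against 0.789%. Letters of an E2F site (TTTCGCGC, TTTGGCGC, TTTCCCGC or GCGCGAAA, the last of which is the first read from the other strand) were in 2 members (5.88%), Cdk1 and Ncapg, against 3.25%.

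The letters were found in members of either pattern. The arrangement with the chosen spacing was present in Cdk1, Ube2c, Cdc20 and Ccnb2, and also in Cdc25b and Bub3. Of the 20 members with a window that were at least 4-fold lower in both lymphocyte populations, 17 (85.0%) held CHR letters, as did 9 (64.3%) of the other 14. The windows of Birc5, Mad2l1, Ncaph, Nuf2, Nusap1, Plk4 and Pttg1 held neither kind, and of these 7 Birc5 and Mad2l1 were at least 4-fold lower in both populations. A match is a run of letters and not a tested site, and its absence concerns only these windows.

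**Figure D1:**
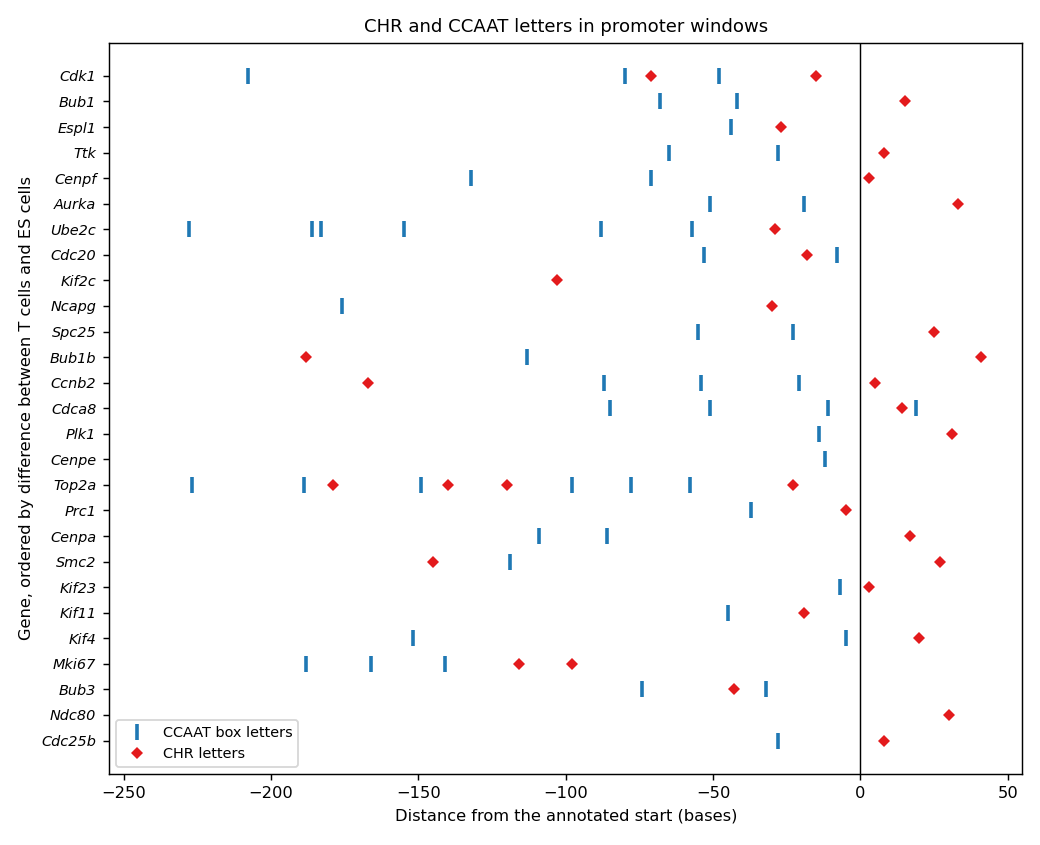
Positions of CHR letters (red diamonds) and CCAAT letters (blue bars) in the first promoter window of each of the 27 measured genes that held either, with the distance in bases from the annotated start on the horizontal axis and genes ordered by their difference between T cells and ES cells. Most CHR letters lie within 50 bases of the start, including those of Cdc25b at the bottom, which was higher in lymphocytes.

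Signals below are probe set intensities on the authors' linear scale. They are compared between arrays for a probe set and not between genes. The probe set whose mean over the 3 arrays was highest stands for its gene. The detection level is a signal of 95, the median of all values, and a fold against an array below it is a lower bound. A gene is called lower or higher where the difference is at least 4-fold and the brighter array is above that level. The only error these data offer is how far the brighter pair of probe sets for the same gene disagreed, which had an SD per probe set of 0.71 on the log2 scale over 26 members for T cells against ES cells, 0.68 for B cells against ES cells and 0.35 over 21 members for T cells against B cells. It reflects the probes alone, and says nothing of how cultures or mice vary.

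The identity of the arrays was described with marker lists, which were chosen with earlier results of these data known. All 10 pluripotency markers exceeded the detection level in ES cells and 1 of 10 in each lymphocyte array, all 9 T cell markers did so in T and 7 in B cells, and all 9 B cell markers in B and 8 in T cells. The summed signal of the T cell markers was 1530 in ES cells, 1282 in B and 74285 in T cells. That of the B cell markers was 605, 135861 and 6157 in the same order. The ES cell array also held all 10 fibroblast markers, with a summed signal of 79726 against 729 in B and 530 in T cells. The summed signal of 10 macrophage markers was 66436 in T cells, 27597 in B cells and 4380 in ES cells. For 8 erythroid markers the sums were 9894 in ES cells, 3410 in B and 2767 in T cells, most of it from the transferrin receptor gene Tfrc. Slc4a1, at 49.2, 168.9 and 305.0, was lowest in ES cells and highest in T cells, as were Epor, Rhag and Ermap. Alas2, Klf1 and the globin gene Hba-a1 did not have that order. Hba-a1, at 11.4, 33.3 and 7.2, was below the detection level on every array. For 8 germinal centre B cell markers the sums were 1355 in ES cells, 4802 in B and 3197 in T cells, and for 7 plasma cell markers 8487, 41277 and 20181 in the same order. For 9 natural killer and cytotoxic cell markers they were 232, 4750 and 9914. The part of such cells in the results was not tested.

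Most of the panel had a much lower signal in lymphocytes than in ES cells. Of the 41 genes, 29 were lower in T cells by at least 4-fold, against 10.2% of the 12325 genes measured in that comparison, and 0 were at least 4-fold higher, against 10.8%. In B cells 27 were at least 4-fold lower, against 10.3% of 12463 genes, and 1 was higher, against 9.85%. The median member signal was 2937 in ES cells, above 91.0% of all genes there. A call of lower needs a signal in ES cells well above the detection level, and among genes whose ES cell signal was no less than the lowest of the members, 15.5% were called lower in T cells and 15.9% in B cells. That limit leaves out dim genes and does not match the members in brightness. The median log2 difference of the members was -2.78 for T cells and -2.38 for B cells, beside medians of -0.11 and -0.07 over all measured genes. The 2 comparisons share the ES cell array. In bulk RNA, fewer dividing cells and less of these transcripts per cell cannot be told apart.

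The genes were nevertheless above the detection level in lymphocytes. All 41 exceeded it in ES cells, as did 40 in each lymphocyte array, where 57.8% and 56.8% of all genes did so. Cdc25c was below it in both lymphocyte arrays. The median member signal was 483 in B and 432 in T cells.

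**Figure D2:**
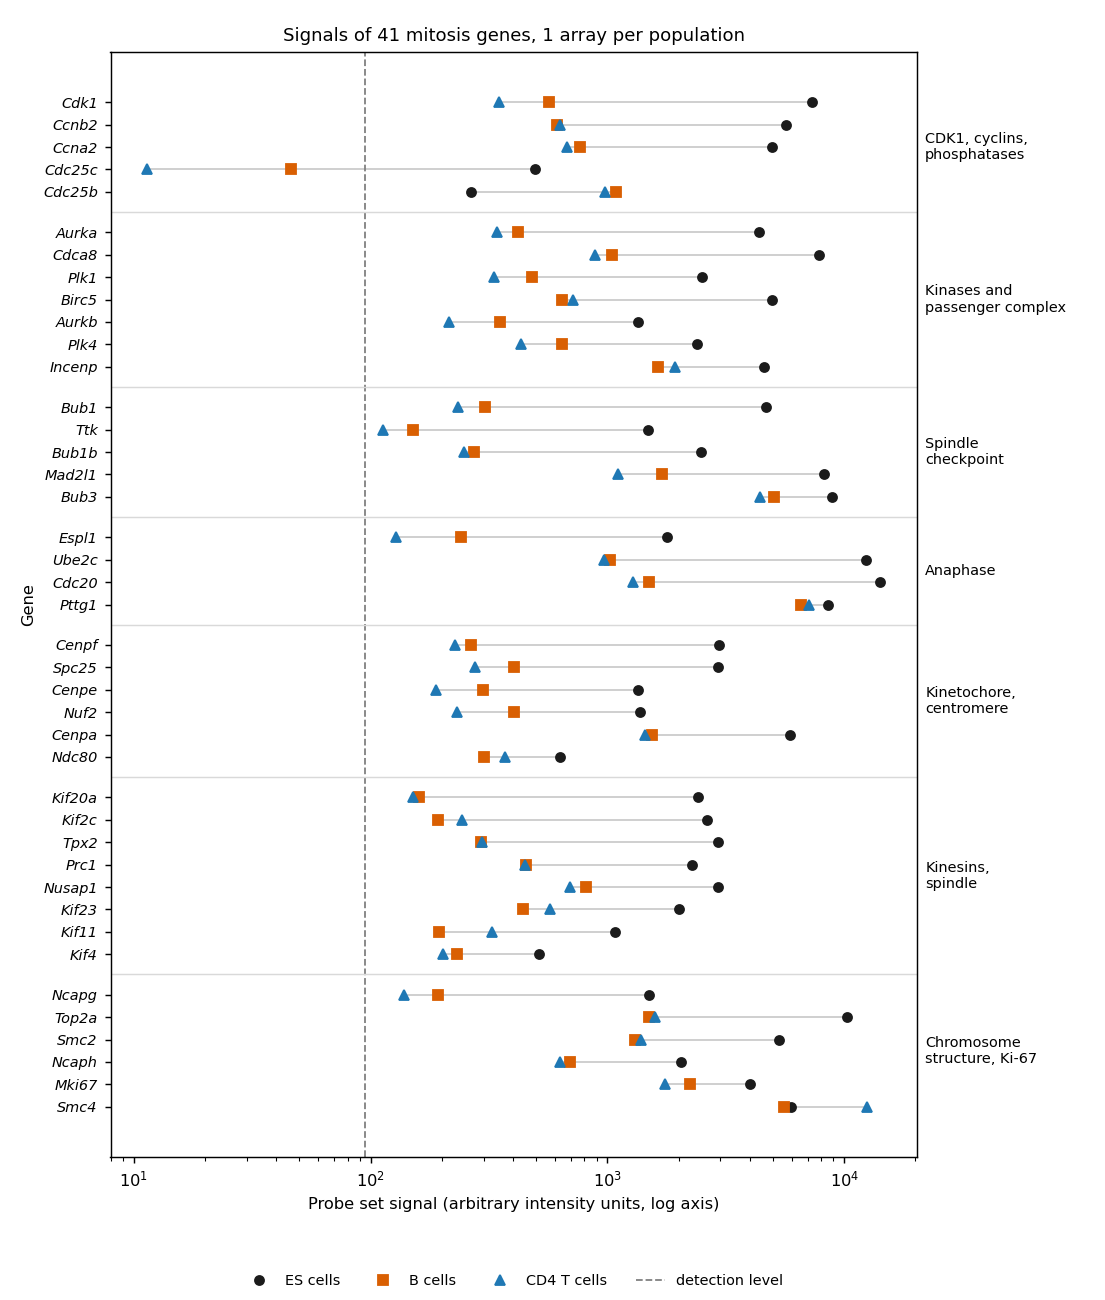
Signal of each of the 41 measured genes (arbitrary intensity units, log axis) in ES cells (black circles), B cells (orange squares) and T cells (blue triangles), 1 array each, grouped by role, with the detection level of 95 dashed. The ES cell point lies to the right of both lymphocyte points for all genes but Cdc25b and Smc4, although Pttg1 in T cells changes side with quantile normalization.

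CDK1 and its activators formed the group with the widest range. Cdk1, which encodes the mitotic kinase itself, had signals of 7293 in ES cells, 566 in B and 350.0 in T cells. It was 20.8-fold lower in T cells, the greatest difference of the panel, and 12.9-fold lower in B cells. Ccnb2, a B-type cyclin that activates CDK1, had signals of 5687, 611 and 634 in the same order and was 8.98-fold lower in T cells and 9.30-fold in B cells. Ccna2, the cyclin of S phase and mitotic entry, had signals of 4939, 764 and 677, or 7.30-fold and 6.47-fold lower in T cells and B cells. Both lymphocyte arrays thus lay far below ES cells for these 3 genes.

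The CDC25 phosphatases, which remove inhibitory phosphates from CDK1, went in opposite directions. Cdc25c had signals of 495.5 in ES cells, 46.1 in B and 11.4 in T cells, and was at least 5.22-fold lower in both lymphocyte populations, a bound that shrinks to -1.02 on the log2 scale if detection is set at the 65th percentile, where the call is lost. Cdc25b had signals of 266 in ES cells, 1088 in B and 974 in T cells. It was the only member higher in both lymphocyte populations, by 3.67-fold in T cells and 4.09-fold in B cells. The B cell value was just past the threshold and fell below it, with the same direction, under 3 other settings (1.70 with quantile normalization, 1.68 with scaling to the 75th percentile and 1.97 with 16 added, on the log2 scale). Cdc25b was read by 1 probe set.

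Of the 7 genes of the Polo and Aurora kinases and the chromosomal passenger complex, 6 reached a 4-fold lower signal in T cells and 4 in B cells. Aurka, the kinase of centrosome maturation and spindle assembly, had signals of 4389 in ES cells, 421 in B and 342 in T cells, 12.8-fold lower in T cells and 10.4-fold in B cells. Cdca8, which encodes the passenger subunit borealin, had signals of 7809, 1045 and 890, and all 3 of its probe sets were lower by more than 4-fold, with log2 differences from -3.61 to -3.13 in T cells. Plk1, the kinase that promotes mitotic entry and cytokinesis, had signals of 2501, 483 and 333, 7.51-fold lower in T cells and 5.18-fold in B cells. Birc5, which encodes the passenger subunit survivin, had signals of 4934, 644 and 719 and was 6.87-fold lower in T cells and 7.66-fold in B cells. For each of these 4 genes both lymphocyte arrays passed the 4-fold threshold.

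The remaining members of the group lay nearer to the threshold. Aurkb, the kinase subunit of the passenger complex, had signals of 1350 in ES cells, 354 in B and 215 in T cells, 6.28-fold lower in T cells and 3.82-fold in B cells. Plk4, which starts centriole duplication, had signals of 2394, 641 and 432 and was 5.54-fold lower in T cells and 3.74-fold in B cells. Their counted difference in T cells and not in B cells is a matter of the threshold, since the B cell values fell just short of 4-fold. Incenp, the scaffold of the complex, had signals of 4590, 1644 and 1937 and was 2.37-fold lower in T cells and 2.79-fold in B cells. Its second brightest probe set gave -1.62 in T cells and -1.70 in B cells on the log2 scale, and its 2 dim ones lay nearer to 0. The second probe set of Aurkb gave -2.07 and -1.64, so the order of Incenp and Aurkb in B cells depends on the probe set.

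Of the 5 spindle checkpoint genes, the same 4 reached a 4-fold lower signal in T cells and in B cells. Bub1, a checkpoint kinase of the kinetochore, had signals of 4677 in ES cells, 305 in B and 235 in T cells, 19.9-fold lower in T cells and 15.3-fold in B cells, although its dim second probe set gave -1.83 on the log2 scale as a bound in both. Ttk, which encodes the kinase MPS1 that starts checkpoint signalling, had signals of 1480, 152 and 113, or 13.1-fold and 9.76-fold lower. Bub1b, which encodes the APC/C inhibitor BUBR1, had signals of 2474, 274 and 248, or 9.97-fold and 9.04-fold lower. Mad2l1, which encodes the checkpoint protein MAD2, had signals of 8218, 1708 and 1107, or 7.42-fold and 4.81-fold lower. For all 4 genes both lymphocyte arrays lay below ES cells by more than 4-fold.

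Bub3 stood apart from its partners. It encodes the WD-repeat protein that carries BUB1 and BUBR1 to kinetochores and had signals of 8907 in ES cells, 5045 in B and 4414 in T cells, only 2.02-fold lower in T cells and 1.77-fold in B cells. Of its 4 measured probe sets, the 2 brighter gave -1.01 and -0.93 on the log2 scale in T cells and the 2 dim ones gave 1.07 and 1.16. The direction for Bub3 is thus a property of its brighter probe sets.

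Of the 4 anaphase genes, 3 were at least 4-fold lower in both lymphocyte populations. Cdc20, the activator of the APC/C and the target of the checkpoint, had signals of 14231 in ES cells, 1498 in B and 1287 in T cells. Its log2 differences were -3.47 in T and -3.25 in B cells, and its 3 probe sets lay between -4.01 and -3.41 on the log2 scale in T cells. Ube2c, the ubiquitin-conjugating enzyme of the APC/C, had signals of 12384, 1023 and 969, 12.8-fold lower in T cells and 12.1-fold in B cells. Espl1, which encodes separase, had signals of 1779, 241 and 128, 13.9-fold lower in T cells and 7.39-fold in B cells. Both lymphocyte arrays were far below ES cells for these 3 genes.

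Pttg1 was the exception. It encodes securin, the inhibitor of separase, and had signals of 8584 in ES cells, 6544 in B and 7083 in T cells. The log2 differences of -0.28 in T and -0.39 in B cells were smaller than the probe set disagreement, and that for T cells turned to 0.04 with quantile normalization and to 0.21 with the median over probe sets. The dimmest of its 3 probe sets, at 154 in ES cells, 451 in B and 678 in T cells, gave 2.14 in T cells and 1.55 in B cells. The lymphocyte signal of the inhibitor gene was thus near that of ES cells, while that of the separase gene was not.

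Among the 6 kinetochore and centromere genes, 5 reached a 4-fold lower signal in T cells and 3 in B cells. Cenpf, a large kinetochore protein that accumulates in G2, had signals of 2965 in ES cells, 266 in B and 227 in T cells, 13.0-fold lower in T cells and 11.1-fold in B cells, while its 2 dimmer probe sets reached -1.58 and -0.89 on the log2 scale as bounds. Spc25, a subunit of the NDC80 complex that binds microtubules, had signals of 2945, 403 and 276, or 10.7-fold and 7.31-fold lower. Cenpe, the kinetochore kinesin that moves chromosomes to the spindle equator, had signals of 1353, 298 and 189, or 7.15-fold and 4.55-fold lower. Nuf2, another subunit of the NDC80 complex, had signals of 1371, 404 and 231, or 5.94-fold and 3.39-fold lower. Of these 4 genes Nuf2 missed the threshold in B cells.

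Cenpa and Ndc80 differed less. Cenpa, the histone H3 variant of centromeric chromatin, had signals of 5917 in ES cells, 1538 in B and 1449 in T cells, 4.08-fold lower in T cells and 3.85-fold in B cells, on either side of the threshold. A second measured probe set of Cenpa gave 0.56 and 0.99 on the log2 scale, in the other direction. Ndc80, which names the complex that Nuf2 and Spc25 belong to, had signals of 634, 303 and 371 and was 1.71-fold lower in T cells and 2.10-fold in B cells by its single probe set. The 3 listed subunits of that complex therefore spanned log2 differences from -3.42 to -0.77 in T cells.

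All 8 kinesin and spindle genes were lower in both lymphocyte populations, 5 at least 4-fold in T cells and 6 in B cells. Kif20a, a kinesin of cytokinesis, had signals of 2414 in ES cells, 161 in B and 152 in T cells, 15.9-fold lower in T cells and 15.0-fold in B cells. Kif2c, which encodes the microtubule depolymerase MCAK, had signals of 2642, 192 and 242, or 10.9-fold and 13.8-fold lower. Tpx2, the spindle assembly factor that activates Aurora A, had signals of 2937, 294 and 295, with log2 differences of -3.32 in both. The dim probe sets of Tpx2 disagreed, and 1 of them gave -0.86 in T cells and 0.24 in B cells.

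The others of this group had smaller differences. Prc1, which bundles the microtubules of the spindle midzone, had signals of 2271 in ES cells, 451 in B and 449 in T cells, 5.06-fold lower in T cells and 5.03-fold in B cells. Kif11, which encodes the bipolar spindle motor Eg5, had signals of 1080, 194 and 327, or 3.31-fold and 5.57-fold lower. Kif23, the kinesin of the midzone complex centralspindlin, had signals of 2009, 439 and 572, or 3.51-fold and 4.57-fold lower. Kif11 and Kif23 were thus called lower in B cells and fell short of the threshold in T cells, the reverse of Aurkb and Plk4.

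Nusap1 and Kif4 completed the spindle genes. Nusap1, a microtubule-stabilizing protein of the spindle, had signals of 2927 in ES cells, 815 in B and 698 in T cells and was 4.20-fold lower in T cells and 3.59-fold in B cells. Kif4, a chromosome-bound kinesin, had signals of 514, 231 and 203 and was 2.53-fold and 2.22-fold lower. Kif4 had the smallest difference of the 8 in each population.

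Chromosome structure genes varied widely. Top2a, the topoisomerase that untangles sister chromatids, had signals of 10311 in ES cells, 1501 in B and 1591 in T cells, 6.48-fold lower in T cells and 6.87-fold in B cells, while its second measured probe set gave -1.82 and -1.57 on the log2 scale. Of the condensin genes, Ncapg, a subunit of condensin I, had signals of 1506, 193 and 139, or 10.9-fold and 7.82-fold lower, while its other probe set gave -1.64 in T and -2.08 in B cells on the log2 scale. Ncaph, the kleisin of condensin I, had signals of 2050, 696 and 633, or 3.24-fold and 2.95-fold lower. Smc2, an ATPase shared by both condensins, had signals of 5283, 1312 and 1392, or 3.80-fold and 4.03-fold lower, and its 5 probe sets spanned log2 differences from -1.92 to -0.18 in T cells.

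Smc4, the ATPase partner of SMC2, had signals of 5950 in ES cells, 5562 in B and 12528 in T cells. It was 2.11-fold higher in T cells than in ES cells, while the B cell difference of -0.10 on the log2 scale was smaller than the probe set disagreement and turned to 0.19 with quantile normalization. All 3 probe sets gave a higher signal in T cells than in ES cells, with log2 differences of 1.07, 1.56 and 1.62. The T cell array was therefore the high one for Smc4, and no other member shared that order by its brightest probe set. The second brightest probe set of Pttg1 did, at 1537 in ES cells, 1361 in B and 1782 in T cells. Outside the panel, the condensin gene Ncapd3 (1316, 715 and 1890) and the cohesin gene Rad21 had the same order, although the Rad21 probe sets ranged from -0.69 to 1.95 in T cells against ES cells. The order was not particular to chromosome structure genes, since Plk3 (547, 335 and 830), Bora, Clasp2 and Lin9 also had it. Mki67, which encodes the proliferation marker Ki-67, a protein that coats mitotic chromosomes, had signals of 4003, 2236 and 1744 and was only 2.29-fold lower in T cells and 1.79-fold in B cells, by a single probe set.

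Across the panel 24 genes were called lower in both lymphocyte populations, 5 in T cells alone (Plk4, Aurkb, Nuf2, Cenpa and Nusap1), 3 in B cells alone (Kif11, Kif23 and Smc2) and 9 in neither (Cdc25b, Incenp, Bub3, Ndc80, Kif4, Smc4, Ncaph, Mki67 and Pttg1). The genes called in 1 population alone were between 3.31-fold and 3.85-fold lower in the other. The call of Cenpa in T cells was lost with quantile normalization (-1.88 on the log2 scale), and that of Smc2 in B cells with quantile normalization (-1.89) and with 16 added. Several probe sets were present for 28 of the members. Of 85 measured probe sets, 76 had a lower signal in T cells than in ES cells and 79 in B cells than in ES cells. When every probe set of a gene had to pass, 15 members were called lower in T cells and 15 in B cells in place of 29 and 27, a count in which a probe set below detection on both arrays also fails its gene. Under that rule 5.39% of all genes were lower in T cells and 5.45% in B cells, in place of 10.2% and 10.3%. Over measured probe sets alone, every one passed for 9 of the 20 called genes with several probe sets in T cells and for 11 of 19 in B cells. Probe sets with the suffix _x_at, which can also bind related transcripts, represented Cdc20, Cdc25c, Aurkb, Incenp, Kif2c and Ncaph. The dimmest probe sets of Kif2c and Nusap1, just above the detection level in ES cells, gave bounds of only -0.10 and -0.12 on the log2 scale in T cells.

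**Figure D3:**
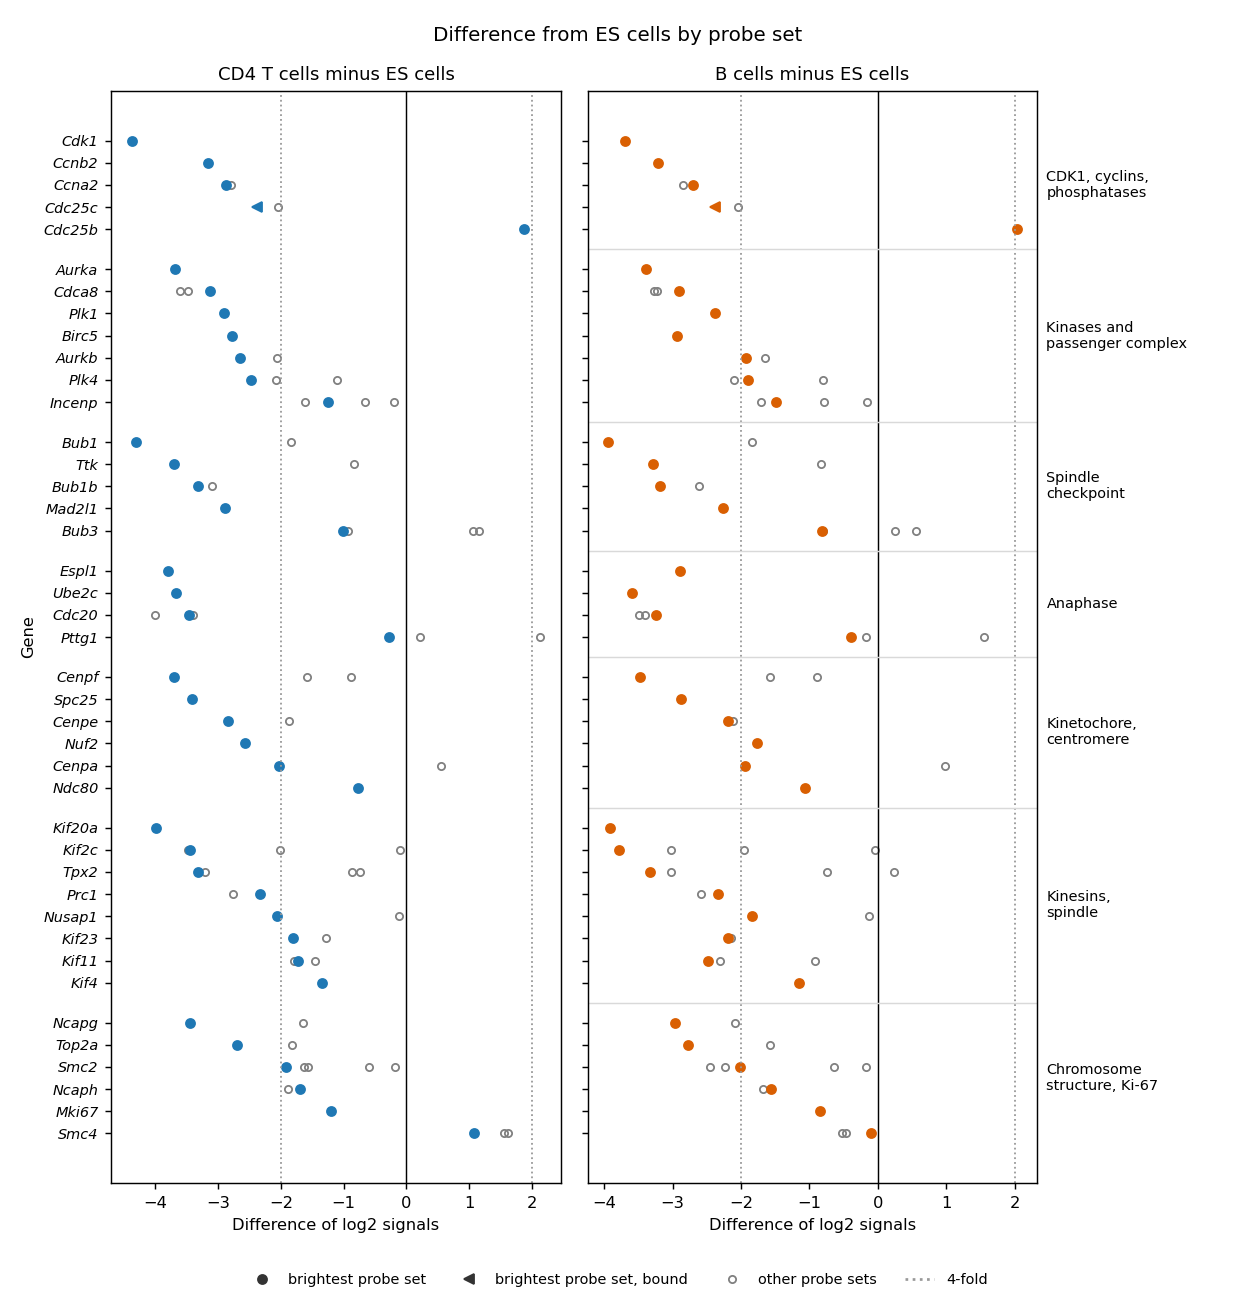
Difference of log2 signals between T cells and ES cells (left) and between B cells and ES cells (right) for the brightest probe set of each of the 41 genes (filled, a triangle where the value is a bound) and for their other measured probe sets (open circles), with dotted lines at 4-fold. Most filled points lie left of -2, and Cdc25b lies near 2 in both panels, while open circles often lie nearer to 0. The filled points of Pttg1 (left) and of Smc4 (right) lie just left of 0 and cross it with quantile normalization.

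T cells were also set against B cells. Of 40 members measured in that comparison, 0 differed by at least 4-fold, against 4.34% of 11194 genes, and at that share a list of this size would hold few such genes, so the count does not set the members apart. At 2-fold, 1 member was higher in T cells, against 8.89%, and 0 were lower, against 6.32%. The member past 2-fold was Smc4, at 2.25-fold, and its other 2 probe sets each gave 2.09 on the log2 scale, which is past 4-fold. Over the 41 members, the log2 signals of the 2 lymphocyte arrays correlated at 0.968 (Pearson) and 0.954 (Spearman), which describes genes on 2 arrays and includes the brightness of each gene's probes.

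Small differences leaned toward lower signals in T cells. The T cell signal was below the B cell signal for 28 of 40 members, where 54.3% of all measured genes were so, and the median log2 difference was -0.18 beside -0.05 over all genes. Espl1 differed most, at 1.89-fold lower in T cells, followed by Nuf2 at 1.75-fold, Aurkb at 1.65-fold, Cdk1 at 1.62-fold and Cenpe at 1.57-fold. In the other direction Kif11 was 1.68-fold and Kif23 1.30-fold higher in T cells, although the dimmest probe set of Kif11 gave -0.53 on the log2 scale. Among the spindle checkpoint genes the log2 difference was -0.63 for Mad2l1, -0.42 for Ttk, -0.38 for Bub1, -0.19 for Bub3 and -0.14 for Bub1b. None of them reached 2-fold, the last 2 lay within the probe set disagreement, and the dim probe sets of Bub3 gave 0.81 and 0.60. Over all measured genes the quartiles of this difference were -0.36 and 0.32, so differences near 0.35 were common and do not set members apart. By the brightest probe sets, several differences besides that of Smc4 exceeded the probe set disagreement of 0.35, and none has a replicate. They were those of Espl1, Nuf2, Aurkb, Cdk1, Cenpe, Mad2l1, Plk4, Spc25, Plk1, Ncapg, Ttk, Bub1, Mki67, Kif11 and Kif23. Those of Bub1, Mki67 and Kif23 lay within the disagreement over all genes, which was 0.40. Other measured probe sets gave 0.24 for Cenpe, 0.44 for Ncapg, and 0.01 and -0.29 for Plk4. The direction for Cenpe and Ncapg, and the size for Plk4, thus depend on the probe set. The other measured probe sets of Aurkb and Kif23 kept the direction, at -0.42 and 0.85. The remaining genes of this list, apart from Kif11, had 1 measured probe set.

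**Figure D4:**
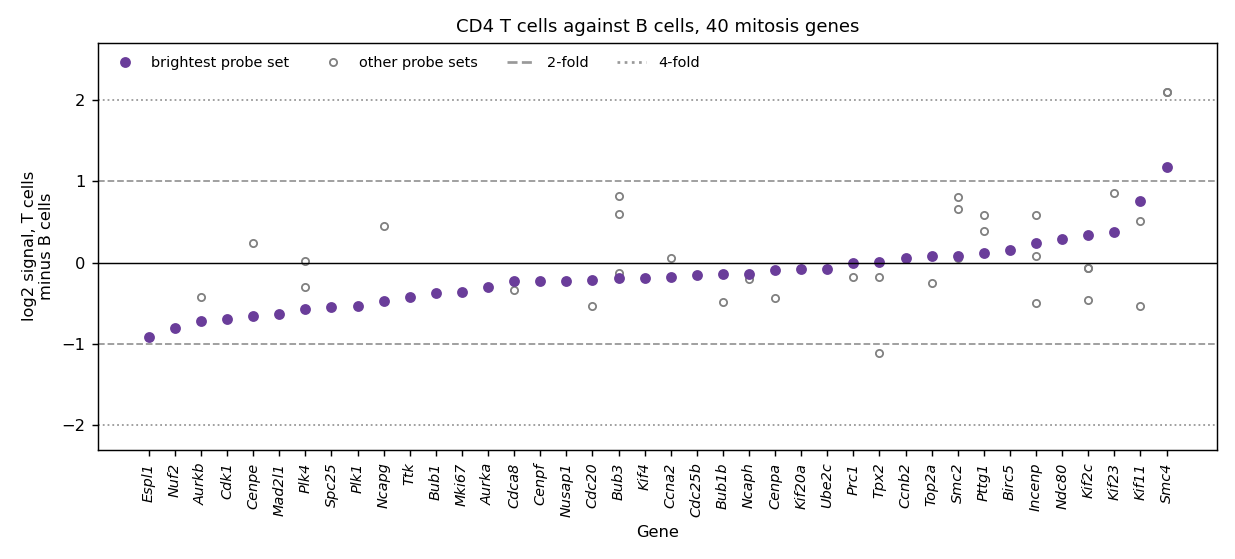
Difference of log2 signals between T cells and B cells for the brightest probe set of the 40 members measured there (filled) and their other measured probe sets (open), genes in order of the difference, with lines at 2-fold (dashed) and 4-fold (dotted). Smc4 at 1.17 is the filled point beyond 2-fold, and the point of Tpx2 at 0.01 falls below 0 with quantile normalization or scaling to the 75th percentile.

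Other mitosis genes, from 5 lists that do not overlap the panel, mostly had the same direction. In T cells 39 of 100 measured genes had a signal at least 4-fold below that of ES cells, against 10.2% of all genes. A signal as far above was found for 1, against 10.8%, and the median log2 difference of the 100 was -1.46. In B cells the counts were 37 below and 2 above, against 10.3% and 9.85% of all genes, with a median of -1.24. Within them the subunits and regulators of the APC/C mostly fell short of the threshold, with 1 of 16 at least 4-fold lower in either population, a share near the 10.2% and 10.3% of all genes, and medians of -0.89 in T and -0.58 in B cells. That 1 was Fbxo5, which encodes the APC/C inhibitor EMI1, with signals of 2864 in ES cells, 504 in B and 591 in T cells. The next were Anapc15 at 3.77-fold, Anapc10 at 2.94-fold and Cdc16 at 2.40-fold lower in T cells, all of them subunits.

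Of 17 measured mitotic entry and centrosome genes, 7 reached a 4-fold lower signal in T cells and 6 in B cells. Over all genes 10.2% and 10.3% did so. The mitotic kinase gene Pbk had a log2 difference of -3.33 in T cells, and lower signals were also found for Melk, by 8.71-fold, the abscission gene Cep55 7.44-fold and Wee1, which encodes the kinase that holds CDK1 inactive, 7.06-fold. Of 33 other kinetochore, centromere and checkpoint genes, 15 reached a 4-fold lower signal in T cells and 14 in B cells, against the same shares. Cenpm was 14.5-fold lower in T cells, Cenph 13.4-fold, the cohesin protector gene Sgo2a 12.5-fold and Spc24, the partner of Spc25 in the NDC80 complex, 12.2-fold. Pmf1, a subunit of the MIS12 complex, went the other way in B cells, where its signal was 477 against 69.5 in ES cells and 116 in T cells, at least 5.02-fold higher than in ES cells. That value came from the brighter of its 2 probe sets, an _x_at one, and the other gave -0.19 on the log2 scale.

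Of 24 measured spindle and cytokinesis genes, 14 reached a 4-fold lower signal in T cells and 13 in B cells. The shares over all genes were 10.2% and 10.3%. Anln, which encodes the contractile ring protein anillin, had signals of 4210 in ES cells, 112 in B and 188 in T cells, 22.4-fold lower in T cells and 37.8-fold in B cells, although its second probe set gave -1.25 in T cells. Ckap2 was 10.5-fold, Hmmr 9.72-fold and the spindle pole gene Aspm 7.22-fold lower in T cells. Of 10 condensin and cohesion genes, 2 fell at least 4-fold below ES cells and 1 rose as far above in T cells, while B cells had 3 and 1. Counts this small are near the shares over all genes, 10.2% lower and 10.8% higher in T cells. Cdca5, which encodes the cohesion factor sororin, was 14.9-fold and the cohesin acetyltransferase gene Esco2 8.43-fold lower in T cells, and the condensin gene Ncapd2 3.78-fold. Top2b, the paralogue of Top2a that does not follow the cell cycle, had signals of 761 in ES cells, 4069 in B and 6000 in T cells, 7.88-fold higher in T cells and 5.34-fold in B cells. Each compared with itself, the paralogues thus went in opposite directions.

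Regulators of late cell cycle transcription included genes called in either direction. Mybl2, which encodes the B-MYB subunit of the activating MYB-MuvB complex, had signals of 4073 in ES cells, 188 in B and 98.8 in T cells, 41.2-fold lower in T cells and 21.7-fold in B cells. Rbl2, which encodes the p130 subunit of the repressive DREAM complex, was just above the detection level in ES cells and at 1265 in B and 1670 in T cells, 16.7-fold higher in T cells and 12.7-fold in B cells. The other pocket protein genes were also higher, Rb1 by 5.93-fold in T and 6.21-fold in B cells and Rbl1 by 4.25-fold and 2.88-fold. By the brightest probe sets, ES cells were the high array for Mybl2 and the low array for all 3 pocket protein genes. Other probe sets of Rbl1 gave log2 differences down to 0.96 in T and 0.02 in B cells. The second probe set of Rbl2 gave 2.63 in T and 1.89 in B cells, and the B cell value fell short of 4-fold. Foxm1, at 238 in ES cells, 182 in B and 198 in T cells, was called in neither population. The MuvB genes Lin9, Lin37, Lin52 and Lin54 were not called either.

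E2F family genes did not move as a block. E2f8 was 7.11-fold and E2f7 at least 6.74-fold lower in T cells, both of them atypical repressors, and the activator gene E2f1 was 5.70-fold lower. E2f2 was 5.75-fold higher in T cells and 12.6-fold higher in B cells, from a signal of 101 in ES cells. Tfdp1, the dimerization partner of E2F proteins, was 2.77-fold lower in T cells and 4.22-fold in B cells. Cdkn1a, which encodes the CDK inhibitor p21, was 14.7-fold lower in T cells and at least 28.8-fold in B cells, with signals of 2738 in ES cells, 90.5 in B and 186 in T cells. In all, 4 of 24 measured regulators were at least 4-fold higher and 5 lower in T cells, and 3 higher and 5 lower in B cells. Over all genes 10.8% were higher and 10.2% lower in T cells, and 9.85% and 10.3% in B cells.

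Many S phase genes were also lower in lymphocytes. Of 26 measured genes of DNA replication, 12 reached a 4-fold lower signal in T cells and 10 in B cells, with 0 higher in either. Over all genes 10.2% were lower and 10.8% higher in T cells, and 10.3% and 9.85% in B cells. The median log2 differences of these S phase genes were -1.93 and -1.75, beside -2.78 and -2.38 for the mitosis panel. Whether the 2 sets differ was not tested. Those with the greatest difference in T cells were the replicative helicase gene Gins1 at 13.1-fold lower, the polymerase gene Pole at 12.3-fold, the origin licensing gene Cdc6 at 9.73-fold and the clamp loader gene Rfc5 at 7.31-fold.

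**Figure D5:**
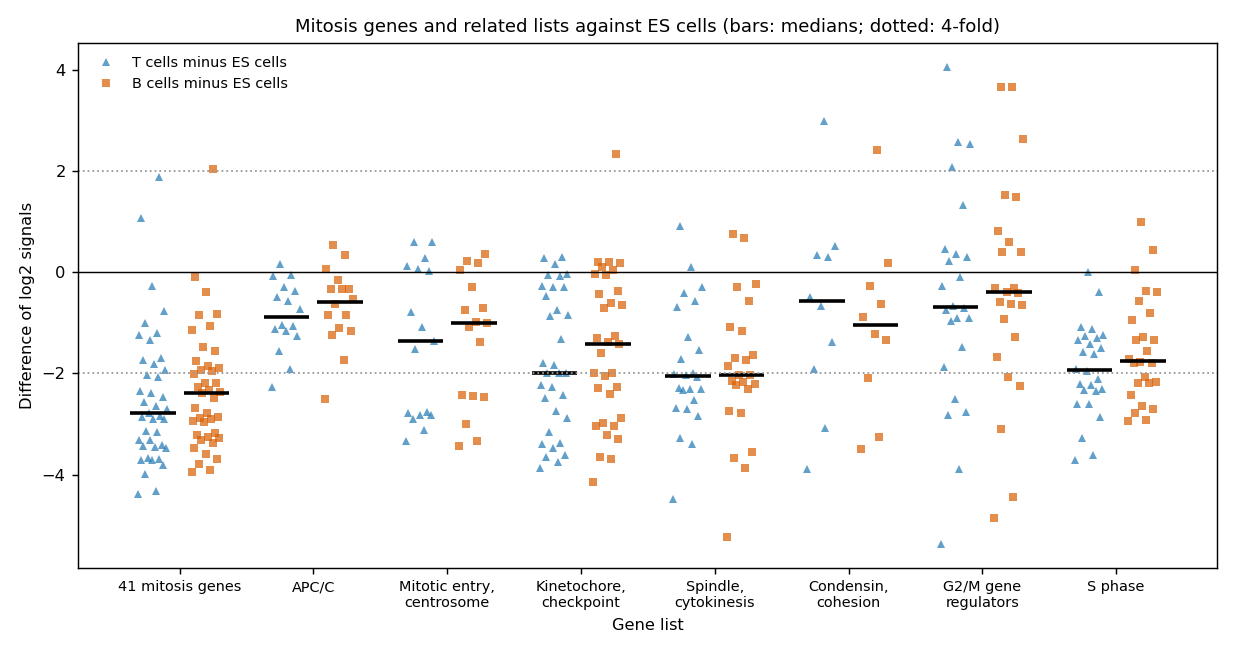
Difference of log2 signals from ES cells for T cells (blue triangles) and B cells (orange squares), 1 point per measured gene, for the mitosis panel and 7 related lists, with medians as bars and 4-fold dotted. The panel has the lowest medians, at -2.78 and -2.38, and the regulators of late cell cycle genes spread to both sides of 0.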

How the data were processed

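The authors deposited a linear intensity for each of 45037 probe sets on 3 arrays, made with Affymetrix Expression Console per the submitters' processing notes. How signals were summarized and scaled is not stated there, nor is a version. The 2% trimmed means were 497.3, 497.8 and 497.7 for ES, B and T cells, so a general change in mRNA per cell would not be seen. Probe sets were named through GEO's platform annotation, with symbols updated by Entrez ID from a RefSeq gene table (GRCm38.p6): 34945 had 1 symbol, 932 several and 9160 none listed. Of 42 members, 41 were found.

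Values were raised to the detection level (50th percentile of all values) before the log2 was taken, in Python 3.11.15 with pandas 2.3.3. A call needed a 4-fold difference, with 1 array per group and no test. The calculation was tested on simulated data. Alternatives tried were scaling to the 75th percentile, quantile normalization, 16 added in place of the floor, a 65th percentile detection level, the median over probe sets, every probe set passing, and a 3-fold threshold.

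The members, the 7 related lists and the marker lists were chosen with earlier results of these data known. Named genes were all members, the 4 genes of each related list with the greatest absolute difference between T cells and ES cells, genes called in any comparison against their list's direction, and every transcription regulator called in any comparison. Ncapd3, Rad21, Plk3, Bora, Clasp2, Foxm1, Lin9, Lin37, Lin52 and Lin54 were named in addition, for comparison. Genes without a probe set of a single listed symbol were not analysed here.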

Additional observations from a re-analysis of the deposited data

Results flagged for a closer look

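Smc4 moved in opposite directions from ES cells in the 2 lymphocyte arrays, the log2 difference being 1.07 for T cells but -0.10 for B cells. The difference between the arrays was not tested, since each population has 1 array. The B cell value is smaller than the probe set disagreement and turned to 0.19 with quantile normalization, while the T cell value was positive for all 3 probe sets.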

How the results depend on the processing

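With 1 array per population no replicate could be left out, and no paired analysis was possible because each group holds 1 sample. The median log2 differences of the members ranged from -3.16 to -2.22 in T cells, from -2.72 to -2.06 in B cells and from -0.23 to -0.10 for T cells against B cells over the main and 5 other settings. Scaling to the 75th percentile put the median of all genes at -0.42 for T cells and -0.37 for B cells in place of -0.11 and -0.07, called 33 and 32 members lower in place of 29 and 27, and took the share of called genes that were higher from 51.5% to 38.6% in T cells and from 48.8% to 37.4% in B cells. With it 13.5% of all genes were called lower in T cells and 13.4% in B cells, in place of 10.2% and 10.3%. Where every probe set had to pass, dim ones included, 15 members were called lower in each population, and where the median over probe sets was used, with dim probe sets counted at 0, the counts were 23 and 22. Over all genes the shares called lower in T and B cells were 5.39% and 5.45% with every probe set. They were 7.1% and 7.21% with the median over probe sets. That median also put 1 member, Smc4, past 4-fold in T cells against B cells (2.09). The call of Cdc25b as higher in B cells was lost, giving 0, with quantile normalization, scaling to the 75th percentile and 16 added, and a 3-fold threshold gave 1 higher member in T cells, again Cdc25b. Lower calls were also lost for Cenpa in T cells and Smc2 in B cells with quantile normalization, for Smc2 in B cells with 16 added and for Cdc25c in both with the 65th percentile detection level. Of the single member differences, 26 of 122 moved by more than the probe set disagreement over all genes with the median over probe sets, 5 of 116 with the 65th percentile detection level and 1 of 122 with 16 added, while 0 of 122 moved with either normalization, and 0 called differences changed sign. The causes were not tested. Precision is limited by having 1 array each, and Cdc25c, Ttk, Espl1 and Ncapg, dim in T cells, depend on the detection level.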
